A study of Mus musculus with 8 samples.

Results

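The genes described here are 10 genes of 2 linked groups of transcription regulators, the MAX network and the germline-silencing Polycomb complex PRC1.6: Max, Mga, Pcgf6, E2f6, L3mbtl2, Myc, Mycn, Mnt, Mxd3 and Mxi1. They were found by matching the Ensembl gene IDs of the deposited table to these 10 symbols, and all 10 were among its 19058 genes. The symbols were picked by biological role with results of these libraries already known. Which values guided that choice is not recorded, so the changes of the 10 genes are given as a description and nothing is supported with them. Polyadenylated RNA was sequenced from mouse late morulae at 78 h after fertilization (E3.25 in the titles), in 4 groups of 2 libraries. Zygotes had received small interfering RNA (siRNA) against both Rbbp4 and Rbbp7 (double knockdown), against Rbbp4 alone (Rbbp4 knockdown), against Rbbp7 alone (Rbbp7 knockdown), or a non-specific siRNA (control), so all embryos had been injected. Rbbp4 and Rbbp7 encode similar histone-binding proteins shared by several chromatin complexes. The labels give no mouse strain and no number of embryos per library, and do not say whether replicate libraries were made from different embryos. P-values therefore measure the spread between these libraries, which may be technical.

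MAX is a small basic helix-loop-helix leucine zipper protein that binds DNA at the E-box CACGTG together with a partner. With MYC or MYCN it activates genes, among them genes of growth and metabolism. With MNT, or with MXD proteins such as MXD3 and MXI1, it represses genes by recruiting SIN3 and histone deacetylases. MGA, a very large protein, is the MAX partner inside PRC1.6, a Polycomb repressive complex that also holds the ring finger protein PCGF6, the histone-binding scaffold L3MBTL2 and the E2F-family repressor E2F6. In mouse embryonic stem cells this complex is known for silencing germline and meiosis genes, and RBBP4 and RBBP7 are known subunits of SIN3 complexes.

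Values are the authors' normalized abundances, given without a unit and called normalized values here. Their read depth is unknown, and no counting interval can be given. The targets were reduced in the libraries labelled so. Rbbp4 had 348 and 433 in double knockdown libraries, 402 and 343 in Rbbp4 knockdown libraries, 4370 and 4467 in Rbbp7 knockdown libraries, and 5300 and 4710 in control libraries. Rbbp7 was at 3.80% of the control mean in the double knockdown and 3.79% in the Rbbp7 knockdown, against 83.3% in the Rbbp4 knockdown. All 10 late morula markers examined were present in every group. Their summed value was 38264 to 39321 in the double knockdown, 46308 to 47090 in the Rbbp4 knockdown, 45348 to 45480 in the Rbbp7 knockdown and 44191 to 52224 in the control. Control library 1 stood apart from the other 7 with 3937 genes at 0, against 2644 to 3237. Totals of normalized values ranged over 11334107 to 12011829. In bulk libraries, fewer cells of a type and less RNA per cell cannot be told apart.

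In control morulae Max was the most abundant of the 10 genes per kilobase of exon, at 348 ± 1.27 normalized values per kb (SD, n = 2). L3mbtl2 followed at 180 ± 10.5 per kb and Mga at 172 ± 19.7 per kb, and the ranges of these 2 genes overlapped. Mnt was listed at 127 ± 22 per kb and Pcgf6 at 117 ± 5.25 per kb, also overlapping. E2f6 at 82.3 ± 2.75 per kb, Myc at 75.2 ± 11.9 per kb and Mxd3 at 60.1 ± 17.7 per kb formed a run in which each overlapped its neighbour. Mxi1 at 28.1 ± 0.98 per kb and Mycn at 13.2 ± 3.54 per kb stood apart from each other and from the rest. Between Myc and Mycn, Myc thus had the higher level per kb in control morulae. Mycl, a further MYC gene, is not among the 10 and was not placed in this order. The order rests on the joined length of all annotated exons of a gene, not on the transcripts present in these embryos. Before division by length, the control mean of Mga was 2641 and that of Max 1252. Max in knockdown embryos averaged 200 per kb in the double knockdown, 188 per kb with Rbbp4 siRNA alone and 294 per kb with Rbbp7 siRNA alone. In the Rbbp4 knockdown its level per kb was close to that of L3mbtl2 and Mga.

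**Figure D1:**
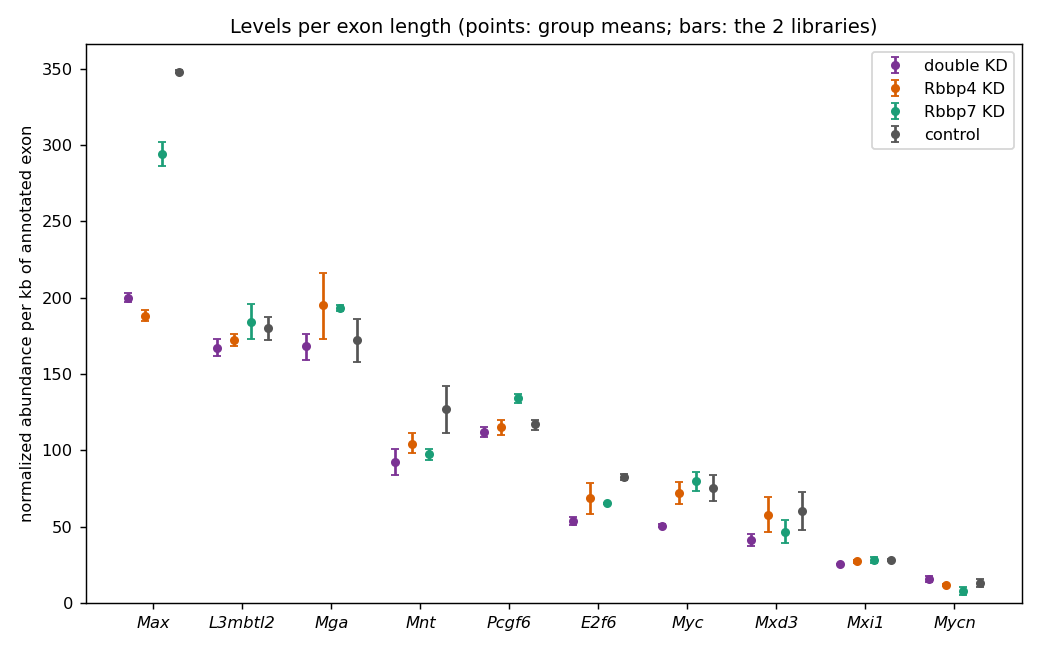
Normalized value per kilobase of exon of the 10 genes, ordered by the control mean; points are means of the 2 libraries of a group and bars run between these libraries. Max leads in control libraries at 348 per kb and Mycn is last at 13.2 per kb.

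Max, the shared partner of the network, varied most over the 4 groups, with a moderated F (limma's ratio of the spread between groups to that within them) of 25.5 against 3.76 for E2f6, the next of the 10. Max had 708 and 730 in double knockdown libraries, 665 and 691 in Rbbp4 knockdown libraries, 1030 and 1088 in Rbbp7 knockdown libraries, and 1256 and 1249 in control libraries. All 4 libraries with Rbbp4 siRNA lay below all 4 without it, and the Rbbp7 knockdown lay between these and the control without overlap. The means were 57.4% of the control in the double knockdown, 54.1% with Rbbp4 siRNA alone and 84.5% with Rbbp7 siRNA alone. The 4 libraries with Rbbp4 siRNA averaged 699 ± 27.6, against 1155 ± 114 in the 4 without it (SD, n = 4 each), a log2 difference of -0.72. Max was the only one of the 10 genes whose 4 libraries with Rbbp4 siRNA did not overlap the 4 without. Of all 12565 genes tested, 3.58% were lower without overlap in this comparison and 3.50% were higher.

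Changes were fitted with limma on log2(value + 1) over 12565 genes, those averaging 10 or more, and a gene was called at a Benjamini-Hochberg adjusted p below 0.05. All 10 genes passed this filter. In the double knockdown against the control, 1 of the 10 genes was called, and 1.15% of all genes tested were called in either direction. That gene was Max, whose log2 change was -0.80 ± 0.12 (SE; limma adjusted p = 0.0243), with 0.501% of all genes called lower. At an unadjusted limma p below 0.05 there were 4 of the 10 genes and 2176 of all 12565. The call was lost without double knockdown replicate 1 (adjusted p = 0.0916) or 2 (0.0648), without Rbbp4 knockdown replicate 1 (0.0618) or 2 (0.0600), and without control replicate 1 (0.0865) or 2 (0.0559), while the log2 change stayed within -0.82 to -0.78 in these limma fits.

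In the Rbbp4 knockdown against the control the log2 change of Max was -0.88 ± 0.12, which was not called (limma adjusted p = 0.121). None of the 10 genes was called there, where 0.0239% of all genes were called, and 1 of the 10 had an unadjusted limma p below 0.05, beside 736 of all 12565. For the Rbbp7 knockdown the log2 change of Max was -0.24 ± 0.12 (limma adjusted p = 0.563). Again none of the 10 was called, with 0.0239% of all genes called, and none had an unadjusted limma p below 0.05, beside 1200 of all 12565. The double knockdown and the Rbbp4 knockdown differed in Max by a log2 value of 0.09, with a 95% interval of -0.19 to 0.36. The double knockdown was lower than the Rbbp7 knockdown by a log2 difference of -0.56 ± 0.12 (limma adjusted p = 0.0846), which was not called. Between the Rbbp4 and Rbbp7 knockdowns the log2 difference in Max was -0.64 ± 0.12 (limma adjusted p = 0.121). It was called only when libraries were weighted by group (adjusted p = 0.0371). The 3 comparisons with the control share its libraries. Of the 10 late morula markers, 3 (Tead4, Krt18 and Cdh1) lay below both control libraries in the Rbbp4 knockdown and none above. There 17.4% of all genes tested lay below and 18.0% above. In the Rbbp7 knockdown 5 markers lay below and 1 above, against 19.7% and 19.9% of all genes tested. The part of these marker differences in the Max values was not tested.

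**Figure D2:**
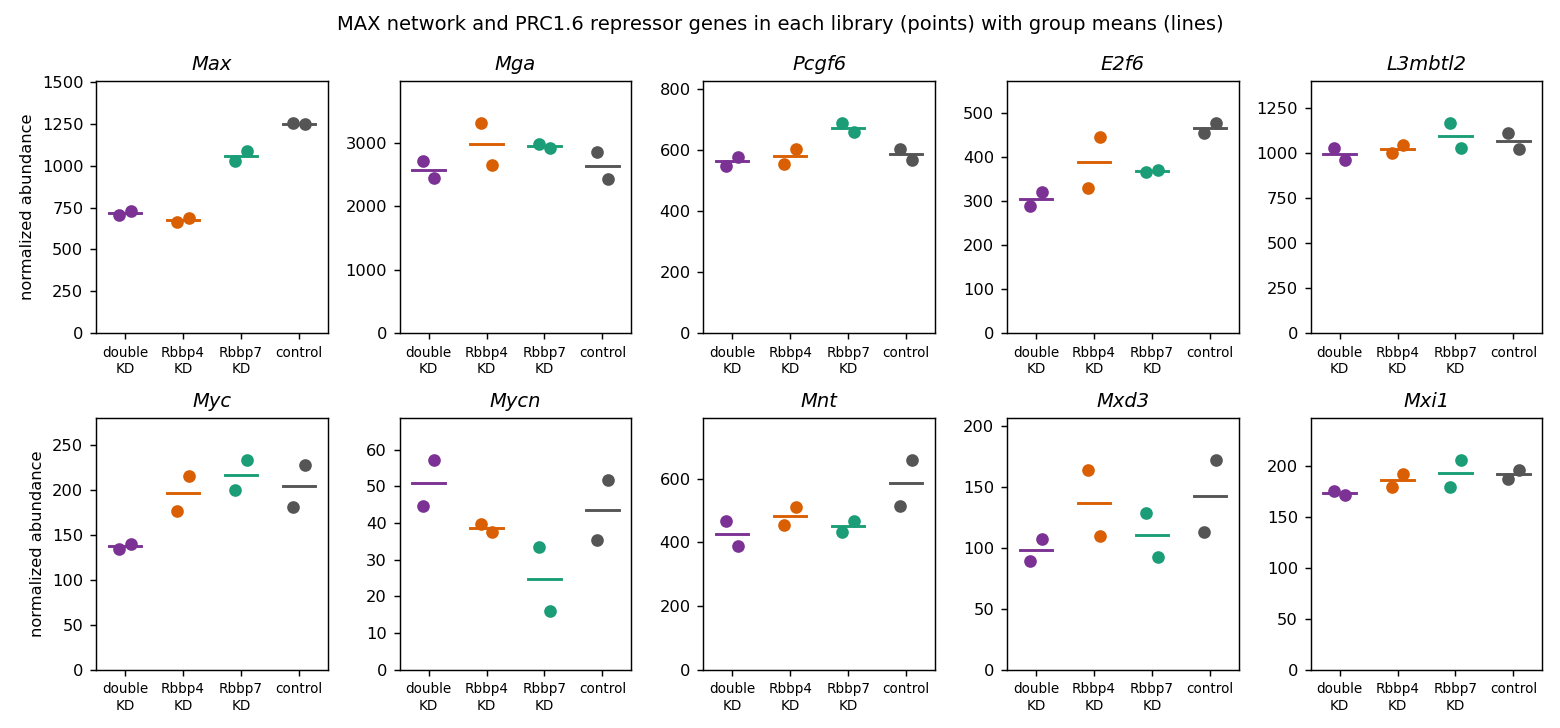
Normalized value of each of the 10 genes in each of the 8 libraries, 1 panel per gene, each with its own axis from 0; points are libraries and lines means of a group's 2 libraries. Max is the gene in which the 4 libraries with Rbbp4 siRNA, at 665 to 730, lie below the 4 without, at 1030 to 1256.

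Max lies on the minus strand of chromosome 12, at chr12:76937269-76962201 in GRCm38 (Ensembl ENSMUSG00000059436). The gene Gm47218 overlaps this interval, and whether the counting used strand is not given in the sources used here. Since Max was the called gene among the 10, the 250 bases before its RefSeq start are shown, from RefSeq on GRCm38.p6 (chr12:76962249-76962498, minus strand, written 5′ to 3′).
Max: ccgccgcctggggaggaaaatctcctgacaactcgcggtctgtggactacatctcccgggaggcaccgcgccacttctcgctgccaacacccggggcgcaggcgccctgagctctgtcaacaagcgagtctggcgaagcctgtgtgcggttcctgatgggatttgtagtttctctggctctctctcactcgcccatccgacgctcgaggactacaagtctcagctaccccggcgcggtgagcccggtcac
Capitals in the promoters shown here mark the E-box CACGTG, which reads the same on both strands, or the E2F6 site searched as GCGGGA on either strand, where it can appear as TCCCGC. The Max window held neither, so it has no capitals, which says only that these letters are not in these bases. Of all 27025 genes with a promoter, 6.86% held the E-box and 18.8% the E2F6 site. A promoter was available for 9 of the 10 genes. The E-box was in 1 of these 9, that of Mnt, and the E2F6 site in 4 of 9, those of Mnt, E2f6, Mxd3 and Mxi1.

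Genes whose values ran most like those of Max over the 8 libraries were ranked by the Pearson correlation of log2(value + 1), as a description of libraries that fall into groups. Rbbp4 itself was second in this ranking of all tested genes, with r = 0.974, while Rbbp7 had r = 0.138. The other 4 of the 5 highest were Ciao2a, a cytosolic iron-sulfur assembly gene (r = 0.977), the ribosomal protein gene Rps4l (r = 0.970), the Hippo pathway adaptor Mob1a (r = 0.967) and the selenocysteine-insertion factor Secisbp2 (r = 0.967). Mob1a had 908 and 906 in double knockdown libraries, 959 and 974 in Rbbp4 knockdown libraries, 1528 and 1456 in Rbbp7 knockdown libraries, and 1901 and 1570 in control libraries. Secisbp2 had 275 and 288 in double knockdown libraries, 248 and 284 in Rbbp4 knockdown libraries, 370 and 377 in Rbbp7 knockdown libraries, and 384 and 379 in control libraries. Both kept the 4 libraries with Rbbp4 siRNA below the 4 without, which follows from the ranking.

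**Figure D3:**
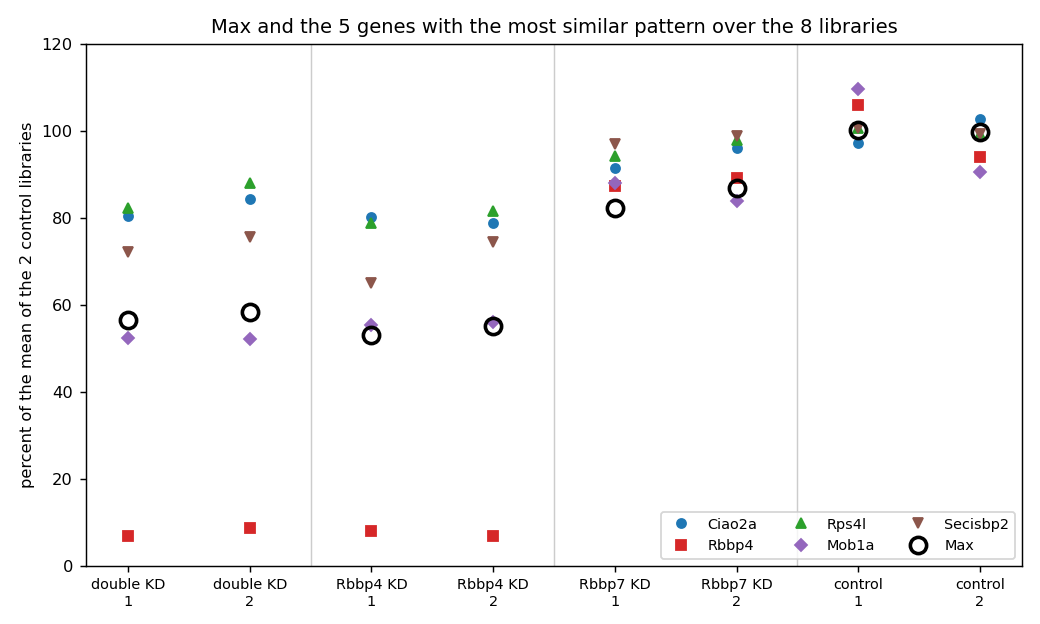
Normalized value of Max and of the 5 tested genes most like it in each of the 8 libraries, as a percentage of the mean of the gene's 2 control libraries. Every gene shown is lower in the 4 libraries with Rbbp4 siRNA, where Max lies at 53.1% to 58.3% and Rbbp4 at 6.85% to 8.66%.

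Mga, Pcgf6 and L3mbtl2, core subunits of PRC1.6, had no called change in any knockdown. Mga had 2706 and 2444 in double knockdown libraries, 3312 and 2656 in Rbbp4 knockdown libraries, 2989 and 2924 in Rbbp7 knockdown libraries, and 2854 and 2427 in control libraries. The log2 changes of Mga were -0.03 in the double knockdown and 0.17 in each single knockdown, with an SE of 0.14. L3mbtl2, the chromatin-compacting scaffold, had 1031 and 961 in double knockdown libraries, 1001 and 1046 in Rbbp4 knockdown libraries, 1167 and 1026 in Rbbp7 knockdown libraries, and 1114 and 1025 in control libraries. Its lowest and highest libraries differed 1.21-fold, and its changes were -0.10, -0.06 and 0.03 for the double, Rbbp4 and Rbbp7 knockdowns on the log2 scale (SE 0.13). A stretch of 641 bases of L3mbtl2 is shared with Chadl on the opposite strand, and whether the counting used strand is not given in the sources used here. Pcgf6, the ring finger subunit that defines the complex, had 549 and 579 in double knockdown libraries, 555 and 605 in Rbbp4 knockdown libraries, 689 and 659 in Rbbp7 knockdown libraries, and 605 and 568 in control libraries. Both Rbbp7 knockdown libraries of Pcgf6 were above both control libraries, with a log2 change of 0.20 ± 0.14 that was not called.

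E2f6, the repressor that brings the complex to E2F sites, had 289 and 320 in double knockdown libraries, 329 and 446 in Rbbp4 knockdown libraries, 367 and 372 in Rbbp7 knockdown libraries, and 455 and 477 in control libraries. All 6 knockdown libraries lay below both control libraries. The double knockdown averaged 65.3% of the control, a log2 change of -0.62 ± 0.18 that was not called (limma adjusted p = 0.136). Log2 changes in the single knockdowns were -0.28 ± 0.18 for Rbbp4 (limma adjusted p = 0.885) and -0.34 ± 0.18 for Rbbp7 (0.604). The interaction, which is the part of the double change beyond the sum of the single changes, was 0.00 ± 0.26 on the log2 scale, with a 95% interval of -0.58 to 0.59.

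**Figure D4:**
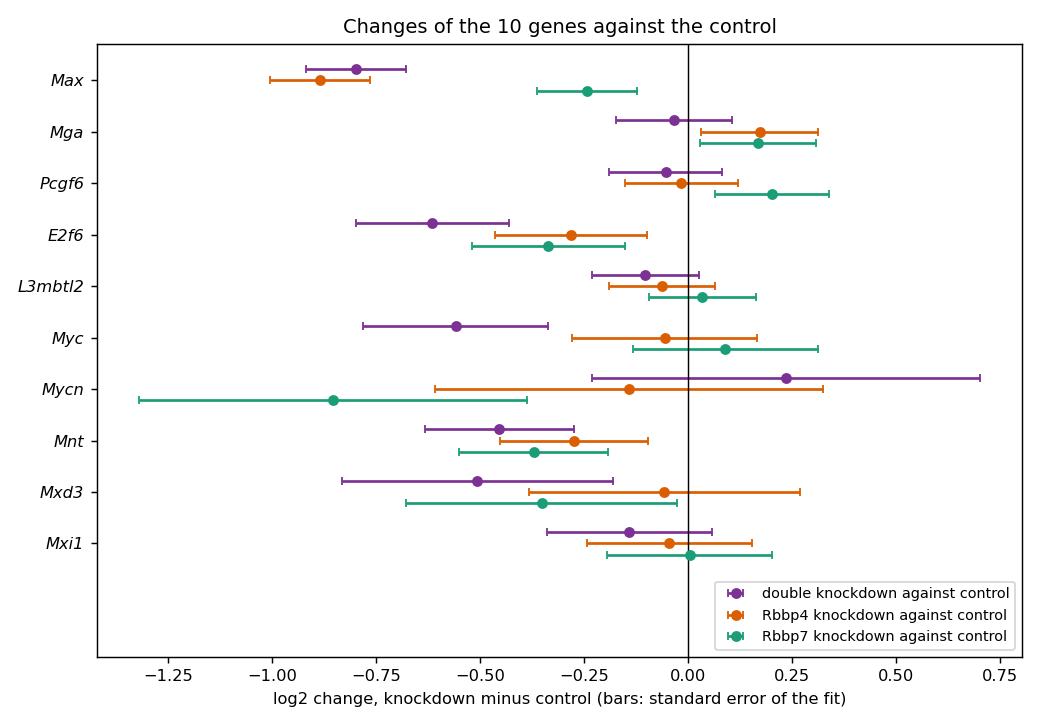
Log2 change of each of the 10 genes in the double, Rbbp4 and Rbbp7 knockdowns, knockdown minus control; bars are the standard error of the limma fit. Max at -0.80 in the double knockdown is the only called change among the 30 shown.

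Myc, the growth-promoting partner of MAX, had its lowest values in the double knockdown. It had 135 and 140 in double knockdown libraries, 176 and 216 in Rbbp4 knockdown libraries, 200 and 234 in Rbbp7 knockdown libraries, and 181 and 227 in control libraries. Both double knockdown libraries lay below the other 6, which overlapped one another. The log2 change of Myc in the double knockdown was -0.56 ± 0.22, not called (limma adjusted p = 0.242), with -0.06 for Rbbp4 siRNA alone and 0.09 for Rbbp7 siRNA alone. Against the single knockdowns the double knockdown differed in Myc by -0.50 for Rbbp4 and -0.65 for Rbbp7 on the log2 scale, neither of them called (limma adjusted p = 0.522 and 0.219). The interaction was -0.59 ± 0.31 and was not called either (limma adjusted p = 0.793). Mycn, its relative, had 44.7 and 57.2 in double knockdown libraries, 39.8 and 37.6 in Rbbp4 knockdown libraries, 33.4 and 16.1 in Rbbp7 knockdown libraries, and 35.3 and 51.8 in control libraries. It was the least abundant of the 10 genes and the most uneven, with a 3.56-fold span over the libraries. Its log2 change in the Rbbp7 knockdown was -0.85 ± 0.47 (limma adjusted p = 0.604).

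Mnt, the MAX partner that opposes MYC in many cell types, had 466 and 388 in double knockdown libraries, 454 and 511 in Rbbp4 knockdown libraries, 434 and 467 in Rbbp7 knockdown libraries, and 515 and 659 in control libraries. Each knockdown library was below both control libraries, and the control libraries were far apart. Log2 changes of Mnt were -0.45, -0.27 and -0.37 in the double, Rbbp4 and Rbbp7 knockdowns (SE 0.18), and none was called. Mxd3, a repressor linked to proliferating cells, had 89.0 and 107 in double knockdown libraries, 164 and 109 in Rbbp4 knockdown libraries, 129 and 92.3 in Rbbp7 knockdown libraries, and 113 and 172 in control libraries. Its replicates differed so much that a log2 change of -0.51 in the double knockdown carried an SE of 0.33. Mxi1, another MXD-family repressor, had libraries between 172 and 206, a 1.20-fold span. Mxd3 and Mxi1 each overlap a gene on the opposite strand.

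Over the 10 genes, the 2 libraries of the double knockdown lay below both control libraries for 6 genes (Max, E2f6, Myc, Mnt, Mxd3 and Mxi1) and above for none, where 22.2% of all genes tested lay below and 21.9% above. In the Rbbp4 knockdown 3 genes lay below (Max, E2f6 and Mnt) and none above, against 17.4% and 18.0% of all genes. For the Rbbp7 knockdown 4 lay below (Max, E2f6, Mycn and Mnt) and 2 above (Mga and Pcgf6), against 19.7% and 19.9%. Median log2 changes of the 10 genes were -0.30 in the double knockdown, -0.06 with Rbbp4 siRNA alone and -0.12 with Rbbp7 siRNA alone, beside all-gene medians of 0.00, 0.00 and 0.01. Since the genes may have been picked for these contrasts, nothing is read from the counts. None of the 10 was called between the knockdown groups or in the interaction. The shares of all genes called were 0.0159% for the double against the Rbbp4 knockdown, 0.358% for the double against the Rbbp7 knockdown (0.239% higher, 0.119% lower), 0.0796% for the Rbbp4 against the Rbbp7 knockdown (0.0637% higher, 0.0159% lower) and 0.00796% for the interaction. In the same order, 1, 3, 1 and 0 of the 10 genes had an unadjusted limma p below 0.05, beside 1203, 1879, 1168 and 815 of all 12565 genes. In the double knockdown, late morula marker sums were below those of the other groups, and 8 of the 10 markers lay below both control libraries. Sums over the 7 cumulus cell markers in the table, 3 of which had a mean of at least 10, were 209 to 281 in the double knockdown and 126 to 135 in the control. They were 157 to 237 in the Rbbp4 knockdown and 101 to 159 in the Rbbp7 knockdown. Of these 7 markers 3 (Ptgs2, Foxl2 and Inhba) lay above both control libraries in the double knockdown and none below. Among these 3, Ptgs2 and Inhba were low, at 1.055 and 3.72 for Ptgs2 and 9.50 and 4.97 for Inhba in double knockdown libraries. Foxl2, a granulosa cell transcription factor, had 101 and 74.4 in double knockdown libraries, against 29.3 and 12.0 in control libraries. Cyp11a1, a steroid-synthesis gene of granulosa and cumulus cells, was at 0 in both double knockdown and both control libraries. The part of these differences in the results was not tested.

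Of 6 other genes of the MAX and MLX network none was called in the double knockdown and 4 had positive log2 changes, with a median of 0.74 for the 6. This list and those below were chosen with earlier results of these data known, so their values are given as a description. Mxd4, a MAX-dimerizing repressor, had 83.7 and 53.2 in double knockdown libraries, 25.1 and 42.4 in Rbbp4 knockdown libraries, 38.8 and 58.3 in Rbbp7 knockdown libraries, and 18.9 and 22.3 in control libraries. Its log2 change in the double knockdown was 1.65 ± 0.46 (limma adjusted p = 0.116). Mlxip and Mxd1 had log2 changes of 0.64 and 0.89 (limma adjusted p = 0.214 and 0.233). Of the 10 other PRC1.6 subunits none was called and 7 had negative changes, with a median of -0.06. Among them were the histone deacetylase gene Hdac2 at 0.48 ± 0.13, the heterochromatin protein gene Cbx3 at -0.30 ± 0.13 and the E2F partner Tfdp1 at 0.94 ± 0.47 (limma adjusted p = 0.118, 0.270 and 0.340).

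Of the 5 ring finger genes that define other PRC1 complexes none was called, and the median log2 change in the double knockdown was -0.02. Pcgf2 had the smallest p of them, with a log2 change of -0.50 ± 0.27 (limma adjusted p = 0.389). Among 9 SIN3 corepressor genes, recruited by MXD and MNT, none was called either and the median was -0.11. Brms1 of this list had 418 and 383 in double knockdown libraries and 580 and 571 in control libraries, a log2 change of -0.52 ± 0.14 (limma adjusted p = 0.116). Of the 7 other E2F genes 1 was called in the double knockdown, where 0.501% of all genes tested were called lower. E2f2, an activating E2F, fell to 132 and 105 in double knockdown libraries, against 286 and 276 in control libraries, with 283 and 290 in Rbbp4 knockdown libraries and 243 and 224 in Rbbp7 knockdown libraries. Its log2 change was -1.25 ± 0.20 (limma adjusted p = 0.0268), and the call was lost without any 1 of the 8 libraries (adjusted p 0.0528 to 0.101). E2f8, an atypical repressor of the family, had a log2 change of -0.78 ± 0.20 (limma adjusted p = 0.0976).

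Among 30 germline genes known as PRC1.6 targets, 29 were in the table and 24 passed the filter. In the double knockdown 20 of the 24 had positive log2 changes and 4 negative, with a median of 0.50, beside 0.00 over all genes. Of all 12565 genes tested 6275 had positive changes there. The list was chosen with earlier results of these data known, so nothing is read from its counts or its median. Without control replicate 2 this median was 0.25, and without double knockdown replicate 2 it was 0.76. In the Rbbp4 knockdown the median of the 24 was 0.14 and in the Rbbp7 knockdown -0.01. Sycp1, which encodes a protein of the synaptonemal complex of meiosis, was the 1 called gene of the list in the double knockdown. Of all genes tested 0.645% were called higher there. In Sycp1 the values were as follows. It rose to 339 and 389 in double knockdown libraries, against 144 and 125 in control libraries, with 217 and 270 in Rbbp4 knockdown libraries and 101 and 169 in Rbbp7 knockdown libraries. The log2 change was 1.43 ± 0.27 in the double knockdown (limma adjusted p = 0.0458). That call was lost without either library of the double knockdown, the Rbbp4 knockdown or the control (adjusted p 0.0971 to 0.142). Sums over 9 oocyte markers were 126 to 188 in double knockdown libraries and 114 to 162 in control libraries, and sums over the 3 of 5 sperm markers in the table were at most 4.76 in any library; the part of either in these values was not tested. Tuba3a, a testis alpha-tubulin gene, had 169 and 129 in double knockdown libraries, 26.1 and 47.1 in Rbbp4 knockdown libraries, 62.7 and 93.8 in Rbbp7 knockdown libraries, and 40.6 and 44.1 in control libraries (limma adjusted p = 0.0691). Hormad1, a meiotic chromosome axis gene, had 540 and 513 in double knockdown libraries, 306 and 332 in Rbbp4 knockdown libraries, 432 and 340 in Rbbp7 knockdown libraries, and 369 and 152 in control libraries (limma adjusted p = 0.138).

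The 250 bases before the RefSeq starts are shown for Sycp1, Hormad1 and Tuba3a, the germline genes with the smallest p-values in the double knockdown. Capitals mark the 2 motifs searched, and binding by the complex was not measured. Their positions on GRCm38.p6 are chr3:102936101-102936350 on the minus strand for Sycp1, chr3:95559427-95559676 on the plus strand for Hormad1, and chr6:125286082-125286331 on the minus strand for Tuba3a.
Sycp1: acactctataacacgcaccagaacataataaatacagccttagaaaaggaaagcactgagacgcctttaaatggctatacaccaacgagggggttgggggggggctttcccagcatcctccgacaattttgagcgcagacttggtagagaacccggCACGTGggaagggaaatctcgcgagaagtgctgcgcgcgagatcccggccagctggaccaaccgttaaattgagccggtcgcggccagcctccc
Hormad1: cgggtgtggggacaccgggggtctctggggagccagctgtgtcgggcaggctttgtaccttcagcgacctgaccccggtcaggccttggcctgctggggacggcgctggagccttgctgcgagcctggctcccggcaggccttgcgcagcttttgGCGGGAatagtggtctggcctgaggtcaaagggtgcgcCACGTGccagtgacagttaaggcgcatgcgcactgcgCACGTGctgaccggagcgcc
Tuba3a: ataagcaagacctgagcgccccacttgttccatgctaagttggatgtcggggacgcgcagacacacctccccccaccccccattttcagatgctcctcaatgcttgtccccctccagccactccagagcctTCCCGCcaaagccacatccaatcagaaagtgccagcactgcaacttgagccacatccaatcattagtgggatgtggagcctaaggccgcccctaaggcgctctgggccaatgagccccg
The Sycp1 window had an E-box 94 bases before the start. The Hormad1 window had E-boxes at 57 and 20 bases and an E2F6 site at 95 bases before the start. Tuba3a had an E2F6 site at 119 bases and no E-box. Of 26 germline genes with a promoter, 14 (53.8%) held the E-box, 8 (30.8%) the E2F6 site and 4 (15.4%) both, against 6.86%, 18.8% and 1.69% of all genes with a promoter. Germline genes are known targets partly through such motifs, so these shares describe the list. In the double knockdown the 12 tested germline genes with an E-box had a median log2 change of 0.47 and the 10 without had 0.56, with 11 and 8 positive. In the Rbbp4 knockdown these medians were 0.29 with an E-box and -0.07 without, with 10 and 5 positive. In the Rbbp7 knockdown they were -0.04 with an E-box and 0.08 without, with 4 and 6 positive. The split by E-box was not tested.

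Of 30 classical MYC target genes 29 were tested and 1 was called in the double knockdown, and the median log2 change was 0.05. Of all genes tested 0.645% were called higher there and 0.501% lower. Ldha, the lactate dehydrogenase gene of glycolysis, rose to 1290 and 1846 in double knockdown libraries, against 647 and 392 in control libraries, with 612 and 619 in Rbbp4 knockdown libraries and 814 and 701 in Rbbp7 knockdown libraries. Its log2 change was 1.61 ± 0.25 (limma adjusted p = 0.0244). The call was lost without either library of the double knockdown or of the Rbbp4 knockdown, or without control replicate 2 (adjusted p 0.0569 to 0.0873). The other 28 targets lay on both sides of 0, with 15 positive and 13 negative. Tfrc, the transferrin receptor gene, was at 0.55 ± 0.18 and Cad, a pyrimidine synthesis gene, at 0.35 ± 0.13 (limma adjusted p = 0.161 and 0.226). In the Rbbp4 knockdown the 29 targets had a median of -0.02, with 11 positive and 18 negative. In the Rbbp7 knockdown their median was 0.15, with 24 positive and 5 negative. There 8 of them had an unadjusted limma p below 0.05, beside 1200 of all 12565 genes. Between the Rbbp4 and Rbbp7 knockdowns the median was -0.19, with 3 positive and 26 negative. These list values were not tested, and the list was chosen with earlier results of these data known. No gene of any of these lists was called in a single knockdown.

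**Figure D5:**
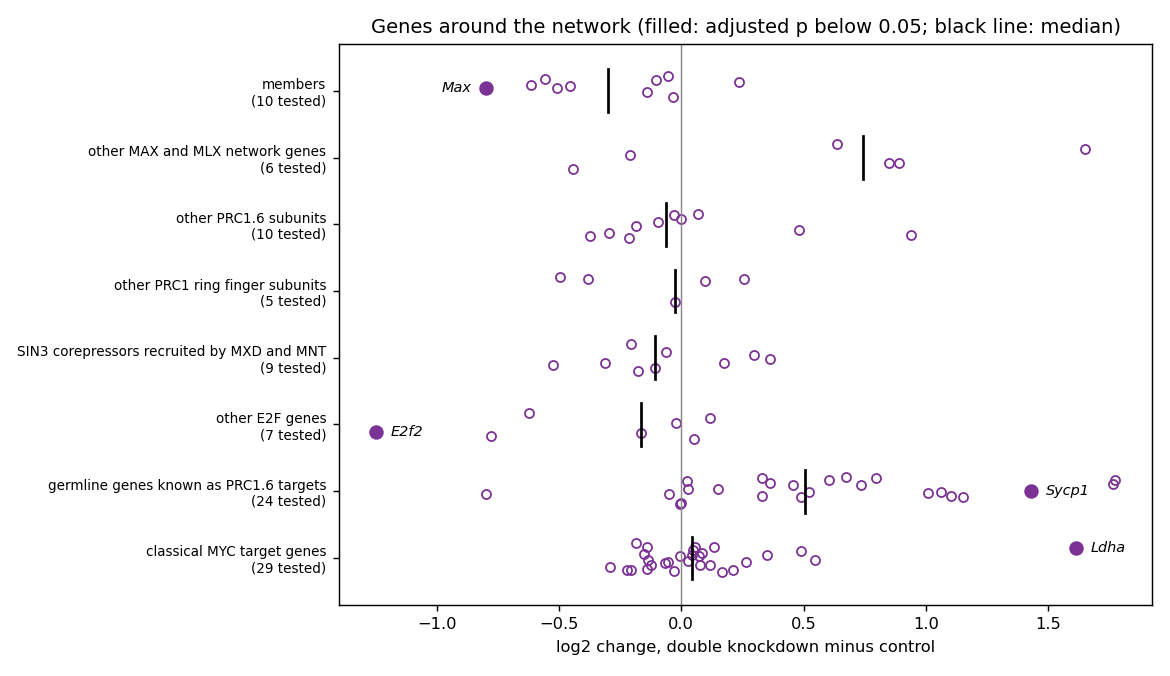
Log2 change in the double knockdown minus control of each tested gene of the 10 described genes and of 7 related lists; filled points were called at an adjusted p below 0.05 and the black line is the list median. The germline list has its median at 0.50 with Sycp1 called, the MYC targets at 0.05 with Ldha called, and the 10 genes at -0.30 with Max called. All lists were chosen with earlier results of these data known.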

How the data were processed

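RNA of 8 libraries in 4 groups of 2 was compared, each library placed by its title. The column names of the double group differ from the titles by 1 letter. The deposited signal values are abundances normalized by the authors with DESeq2, per the file name; the submitters' processing notes also name Trimmomatic, HISAT2, featureCounts and GRCm38, without versions. Normalized values do not give the reads behind a gene, so no count test was used and depth is unknown.

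Genes averaging 10 or more across libraries (12565 kept, 6493 left out) were fitted as log2(value + 1) in limma 3.58.1 (R 4.3.3), with 1 mean per group, a mean-variance trend and 4 residual degrees of freedom. The 7 comparisons were the 3 knockdowns against the control, the 3 pairs of knockdowns and the interaction. P-values were two-sided, with Benjamini-Hochberg adjustment over all tested genes within a comparison. Log2 changes understate those of low genes. The fit was checked on simulated data.

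The 10 genes and the other lists were chosen with earlier results of these data known. All 10 were named. From each list every called gene was named and otherwise up to 3 genes with the smallest p in the double knockdown. Some genes under other observations were named outside this rule. Gene positions are from GENCODE on GRCm38. Promoters were matched by symbol in RefSeq. Alternatives were other pseudocounts, filters and scalings, array weights, a replicate block, the compared groups alone, and leaving out each library.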

Additional observations from a re-analysis of the deposited data

Results flagged for a closer look

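Among the 10 genes, Max and Mycn were singled out by a pattern in their libraries. With Rbbp7 siRNA their values were lower without Rbbp4 siRNA and higher with it, with no overlap in either setting. How many of all genes tested show this pattern was not counted, so nothing is read from it. In the Rbbp7 knockdown against the control alone, 19.7% of all genes tested were lower without overlap and 19.9% higher. Max had 708 and 730 with both siRNAs, against 665 and 691 with Rbbp4 siRNA alone, and 1030 and 1088 with Rbbp7 siRNA alone, against 1256 and 1249 in the control. The difference between these effects, the interaction, was 0.33 ± 0.17 on the log2 scale, with a 95% interval of -0.05 to 0.71, and was not called (limma adjusted p = 0.786). Mycn had 44.7 and 57.2 with both siRNAs, against 39.8 and 37.6 with Rbbp4 siRNA alone, and 33.4 and 16.1 with Rbbp7 siRNA alone, against 35.3 and 51.8 in the control. Its interaction was 1.23 ± 0.66 on the log2 scale (limma adjusted p = 0.797). No group was large enough to look for a single outlying library.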

How the results depend on the processing

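Each of the 10 genes' 7 log2 differences was recomputed under 16 or 17 alternatives, 1173 values in all. Of these 1108 kept their direction and side of the threshold or moved by less than the spread between replicates, 56 moved by more, 8 lost a call and 1 gained one. Many alternatives cannot move a log2 difference and can change only its p-value. These are the filters, the array weights per group, the replicate block, the compared groups alone and leaving out a library of an uninvolved group. The 1108 are therefore in part fixed in advance. No called value changed sign, but 37 of the 1173 values did, in 20 of the 70 differences, all of them uncalled and at most 0.24 in size on the log2 scale; for E2f6 the interaction kept its sign in 11 of 16. The 8 lost calls were those of Max in the double knockdown against the control: 6 came from leaving out 1 library, the others from array weights (adjusted p = 0.0639) and from fitting the compared groups alone (0.143). Fewer libraries enter that last fit. E2f2, Sycp1 and Ldha were called in 7, 7 and 11 of 17 alternatives, with adjusted p-values of 0.0218 to 0.172, 0.0374 to 0.142 and 0.0199 to 0.126. With the replicate block Sycp1 was at 0.0506.

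Called genes over the whole table numbered 144 in the double knockdown against the control, 38 with array weights and 2 with the compared groups alone. The Rbbp7 knockdown against the control gave 3, 5 with a pseudocount of 5 and 6 with a mean of at least 50. The double against the Rbbp7 knockdown gave 45, 78 with a mean of at least 50 and 1 with the compared groups alone. The Rbbp4 against the Rbbp7 knockdown gave 10, 65 with array weights and 18 with the compared groups alone. Leaving out 1 library gave 2 to 35 calls in the Rbbp4 knockdown, 1 to 38 in the Rbbp7 knockdown and 18 to 94 in the double knockdown against the control. It gave 2 to 13 in the double against the Rbbp4 knockdown, 5 to 43 in the double against the Rbbp7 knockdown, 6 to 14 in the Rbbp4 against the Rbbp7 knockdown and 1 to 21 in the interaction. The cause of these differences was not tested. The replicate block gave 113 calls in the double knockdown. Deviations of same-numbered libraries correlated at -0.02 to 0.05 over the 6 pairs of groups, so no large shared deviation by number was seen. This cannot tell whether same-numbered libraries were made together, which the labels do not say. Groups of 2 and unknown depth limit the precision.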

Other observations

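Per kilobase of exon, the level of Max was set against the summed level of 6 of its partner genes (Mga, Myc, Mycn, Mnt, Mxd3 and Mxi1). Mycl, Mxd1 and Mxd4 were left out of the sum. In the double knockdown they were at 106%, 188% and 332% of the control. Max amounted to 0.488 and 0.531 of that sum in double knockdown libraries, 0.380 and 0.428 in Rbbp4 knockdown libraries, 0.632 and 0.669 in Rbbp7 knockdown libraries, and 0.776 and 0.692 in control libraries. The 4 groups did not overlap. The ratio is of RNA values and depends on the annotated exon lengths. It rests on Max, which was chosen with results known, so no test was made.

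Of the germline genes, 5 had a mean under 10 and were not tested. Taf7l, a testis-enriched TFIID subunit gene, was listed at 3.996 and 15.1 in double knockdown libraries and at 0.879 and 0 in Rbbp4 knockdown libraries, and at 0 in all Rbbp7 knockdown and control libraries. Tdrd1, a Tudor gene of the piRNA pathway, had 10.6 and 16.1 in double knockdown libraries, 6.44 and 4.72 in Rbbp4 knockdown libraries, 4.75 and 2.09 in Rbbp7 knockdown libraries, and 1.27 and 3.01 in control libraries. Tex11, a meiosis gene, had 18.9 and 16.3 in double knockdown libraries, 6.07 and 3.70 in Rbbp4 knockdown libraries, 8.20 and 8.77 in Rbbp7 knockdown libraries, and 9.58 and 4.81 in control libraries. Each of these 3 genes had both double knockdown libraries above the other 6. Tuba3b and Stra8, the others of the 5, did not. These 3 were picked out after their values were seen. How many of all genes under the filter show this pattern was not counted, so nothing is read from it.

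Values of the deacetylase genes of PRC1.6 were as follows. Hdac1 had 3779 and 3910 in double knockdown libraries, 3362 and 3671 in Rbbp4 knockdown libraries, 5519 and 5804 in Rbbp7 knockdown libraries, and 3726 and 3979 in control libraries, while Hdac2 had 3616 and 3953 in double knockdown libraries, 3032 and 3133 in Rbbp4 knockdown libraries, 2110 and 2482 in Rbbp7 knockdown libraries, and 2981 and 2457 in control libraries. The log2 difference between the Rbbp4 and Rbbp7 knockdowns was -0.69 ± 0.11 for Hdac1 and 0.43 ± 0.13 for Hdac2, and neither was called (limma adjusted p = 0.0624 and 0.344). Hdac1 and this comparison were not picked by the naming rule used for the lists, so nothing is read from them.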
